A study of Mus musculus with 9 samples.

Results

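The insulin-like growth factor (IGF) system was followed through 10 genes: the ligand genes Igf1 and Igf2, the receptor genes Igf1r and Igf2r, and the binding protein genes Igfbp2, Igfbp3, Igfbp4, Igfbp5, Igfbp6 and Igfbp7. They were chosen by name as members of a known gene family, with earlier results of these data known. All 10 were found among the 25239 genes listed, and all 10 were among the 12611 genes tested, those that averaged 1 FPKM or more across the 9 libraries. FPKM counts fragments relative to gene length and to library size, so it allows levels of different genes to be compared per length. Each value of these genes stood for between 430 and 102757 reads.

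Polyadenylated RNA was sequenced from primary mouse cortical astrocytes, glial cells taken from the cortex of 4-day-old pups (P4) and grown in serum-containing medium. Cultures were exposed to 200 µM hydrogen peroxide (H2O2), an oxidant, for 3 h and then washed. They were harvested 72 h after the wash (day 3, 3 libraries) or 24 h after it (day 1, 3 libraries), and 3 control libraries came from cultures labelled only as control. Both comparisons with control use the same 3 control libraries, for which no harvest time is given, so exposure and time in culture cannot be told apart. Strain and sex of the mice are not given. Neither do the labels say whether replicates were separate cultures, and the p-values therefore measure only how much these libraries vary, a spread that could be purely technical.

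IGF1 and IGF2 are secreted relatives of insulin that drive growth and survival through the tyrosine kinase encoded by Igf1r, while the lysosomal sorting receptor encoded by Igf2r removes IGF2 from the surroundings of the cell. The binding proteins hold most IGF outside cells and either block its action or carry it to the receptor, and secreted proteases free the ligand by cutting them. In the brain, IGF1 is made by neurons and glia, and IGF2 is known above all from the meninges, the choroid plexus and blood vessels.

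The libraries held 23032594 to 38414668 reads. All 12 astrocyte markers examined were tested, and their summed level was 3102 to 3127 FPKM on day 3, 2458 to 2756 FPKM on day 1 and 3356 to 3438 FPKM in control. Of the 12, 8 were lower and 2 higher than in control on day 1, beside 31.1% of all genes tested in each direction. On day 3, 4 were lower and 0 higher, beside 6.45% and 7.37%. Markers of other cell types were also present. Summed over 17 microglia markers, the level was 319 to 403 FPKM on day 3, 162 to 178 FPKM on day 1 and 376 to 412 FPKM in control. Summed over 9 mural cell markers it was 1083 to 1174, 2135 to 2208 and 1158 to 1256 FPKM in the same order of groups. Acta2 and Tagln, averaging 996 and 1107 FPKM on day 1, made up most of the mural sum. Of the 9 mural markers, 3 averaged under 1 FPKM. Of 10 tested oligodendrocyte lineage markers, 8 were lower than in control on day 3 and 9 on day 1, beside 6.45% and 31.1% of all genes tested. Cspg4 alone was higher on day 1, 2.35-fold over control (limma adjusted p = 4.25e-08). The sum over the list was 429 to 462 FPKM on day 3, 357 to 382 FPKM on day 1 and 522 to 551 FPKM in control. All 4 tested ependymal markers were lower on day 1, beside 31.1% of all genes tested, and the sum over that list was 115 to 131, 74.1 to 83 and 126 to 140 FPKM in the same order. Most endothelial markers were scarce, with 6 of 8, among them Cldn5 and Pecam1, under 1 FPKM on average. The other 2 were not. Cdh5 averaged 13.4 FPKM on day 3, 10.9 FPKM on day 1 and 11.1 FPKM in control. Slco1c1 averaged 8.82, 11.6 and 8.11 FPKM in the same order. In such bulk samples, fewer cells of a type and less RNA per cell cannot be told apart.

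On day 1 the IGF genes differed widely from control in both directions. Of the 10 genes, 6 were higher (Igf1, Igf2r, Igfbp2, Igfbp3, Igfbp4 and Igfbp7), 3 were lower (Igf2, Igf1r and Igfbp5), and Igfbp6 did not pass the test. A gene was called at a limma adjusted p under 0.05, with p-values adjusted over all genes tested. Among those, 31.1% were called higher and 31.1% lower. Day 1 and control libraries did not overlap for 9 of the 10 IGF genes, beside 66.1% of all genes tested. The median size of the log2 difference, regardless of sign, was 0.70 over the 10 genes and 0.19 over all genes tested.

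On day 3 fewer of the genes differed from control. Igf1, Igf2r, Igfbp3 and Igfbp7 were higher, Igfbp5 was lower, and 5 did not pass, against a background of 7.37% of genes called higher and 6.45% lower. The day 3 and control libraries did not overlap for 7 of the 10, beside 30.3% of all genes. The median size of the log2 difference was 0.22 over the 10 genes and 0.07 over all genes tested. Between the days, 3 genes were higher on day 3 than on day 1 (Igf2, Igf1r and Igfbp5) and 6 were lower (Igf1, Igf2r, Igfbp2, Igfbp3, Igfbp4 and Igfbp7), beside 27.9% and 28.4% of all genes. Day 3 and day 1 libraries did not overlap for any of the 10 genes, beside 61.8% of all genes. The median size of that difference was 0.41 over the 10 genes and 0.16 over all genes tested.

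**Figure D1:**
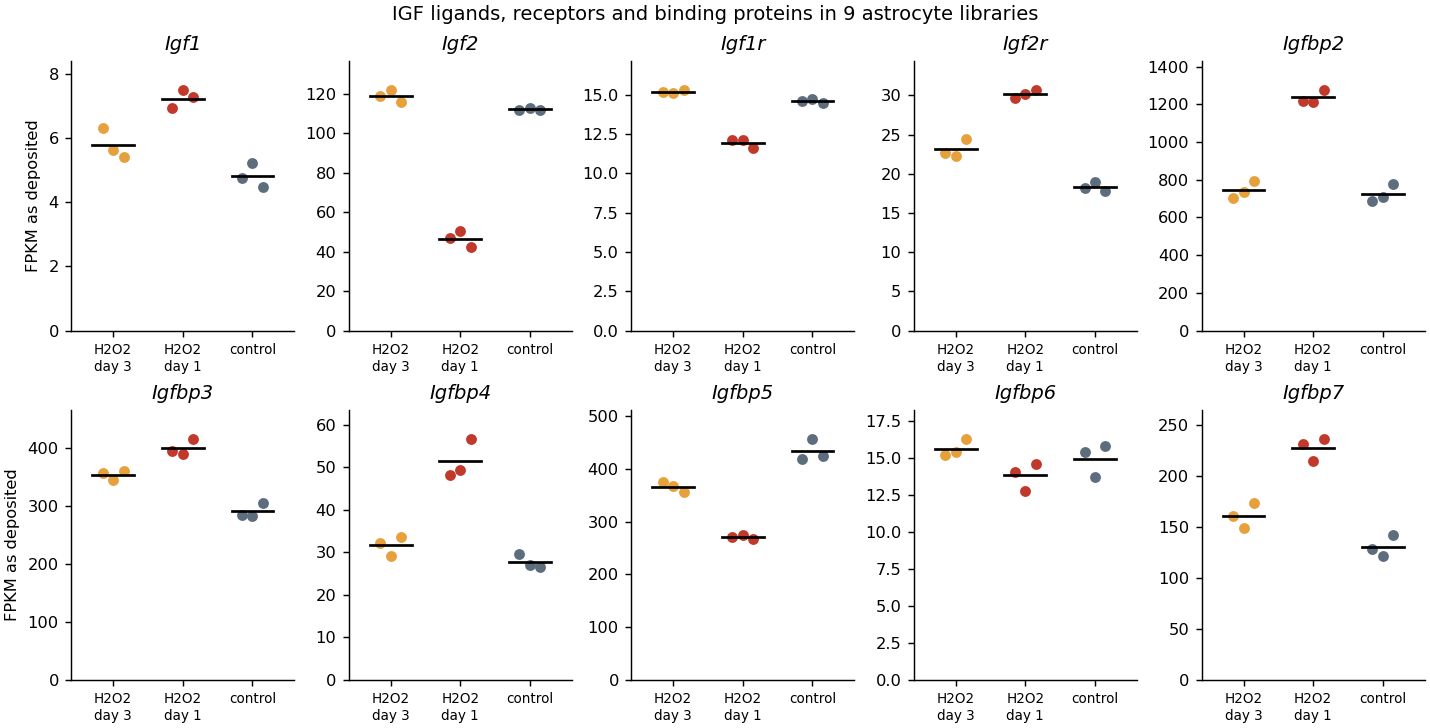
FPKM of each of the 10 IGF genes (vertical axes, each from 0) in the 3 day 3, 3 day 1 and 3 control libraries (points), with a bar at each group's mean. Day 1 libraries lie below those of day 3 and control for Igf2, Igf1r and Igfbp5, and above them for Igf1, Igf2r, Igfbp2, Igfbp3, Igfbp4 and Igfbp7.

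Igf2 was the more abundant ligand transcript in every library and showed the largest day 1 difference of the 10 genes. It had 119, 122 and 116 FPKM on day 3, 47.2, 50.5 and 42.4 FPKM on day 1, and 112, 113 and 112 FPKM in control. The day 1 libraries all lay far below the other 6, and the day 3 libraries lay just above the control libraries without overlap. Relative to control, Igf2 was 2.35-fold lower on day 1 (95% interval 2.19 to 2.54, limma adjusted p = 1.55e-08). On day 3 it was 1.07-fold higher than in control, which did not pass the test (0.995 to 1.15, limma adjusted p = 0.211), although limma-voom on reads recovered from the FPKM called it (adjusted p = 0.0494). From day 1 to day 3 the difference was 2.52-fold (2.34 to 2.72, limma adjusted p = 2.19e-08), higher on day 3. These folds, like all that follow, were estimated on log2(FPKM + 0.1) after a rescaling between libraries.

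Igf2 lies on the minus strand of chromosome 7 at 142650768 to 142666816 (GRCm38.p6), 72.6 kb from H19, an imprinted non-coding RNA gene that shares regulatory elements with it. H19 had 401, 390 and 416 FPKM on day 3, 162, 166 and 158 FPKM on day 1, and 394, 397 and 426 FPKM in control. It was thus low in the same 3 libraries as Igf2, 2.45-fold below control on day 1 (2.33 to 2.57, limma adjusted p = 1.47e-09). Over the 9 libraries the ratio of H19 to Igf2 FPKM ran from 3.19 to 3.8, and it averaged 3.39 ± 0.207 on day 3, 3.49 ± 0.221 on day 1 and 3.61 ± 0.158 in control (SD, n = 3 each).

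Reads of Igf2 may include those of its overlapping genes, because neither the counting program nor its strand setting is given. Igf2 shares 98 exon bases with the antisense gene Igf2os, which had at most 0.219 FPKM in any library. It shares 3596 exon bases with Gm49394 on the same strand, which is not among the genes listed. Markers of tissues known for Igf2 are given beside it. Of 10 tested among 13 meningeal fibroblast markers, 3 were higher and 4 lower on day 1. That is near the 31.1% of all genes tested that were called in each direction. On day 3, 6 were higher and 1 lower than in control, beside 7.37% and 6.45% of all genes tested. None of the 13 was at 0 in all libraries. Their summed level was 277 to 295 FPKM on day 3, 217 to 219 FPKM on day 1 and 267 to 283 FPKM in control. Dcn, the decorin gene and a member of that list, averaged 52.5 FPKM on day 3, 9.01 FPKM on day 1 and 45.1 FPKM in control. The 3 that were higher on day 1 were Tbx18 (2.08-fold), Aldh1a2 (1.41-fold) and Ogn (1.16-fold). Of 3 tested among 7 choroid plexus markers, 2 were lower on day 1, beside 31.1% of all genes tested. The summed level over the 7 was 8.89 to 11.9 FPKM on day 3, 7.23 to 8.92 FPKM on day 1 and 11.6 to 14.8 FPKM in control. What part such cells had in the Igf2 difference was not tested.

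Igf1 moved the opposite way at a much lower level. It had 6.30, 5.62 and 5.41 FPKM on day 3, 6.92, 7.49 and 7.26 FPKM on day 1, and 4.74, 5.22 and 4.48 FPKM in control. The 3 groups did not overlap, with day 1 highest and control lowest. Igf1 was 1.53-fold higher than in control on day 1 (1.37 to 1.7, limma adjusted p = 2.2e-05) and 1.26-fold lower on day 3 than on day 1 (1.14 to 1.40, limma adjusted p = 0.00181). The difference between day 3 and control was 1.21-fold (1.09 to 1.34, limma adjusted p = 0.0244). This last call rested on single libraries: the adjusted p was 0.0617 without control replicate 1, 0.0855 without control replicate 3 and 0.0937 without day 3 replicate 1.

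Microglia are a known source of Igf1 in the brain, so their markers are given beside it. On day 1, 15 of 16 tested were lower than in control, beside 31.1% of all genes tested. Tmem119 alone was higher, with 14.8 ± 0.778 FPKM on day 1 and 8.76 ± 0.174 FPKM in control (SD, n = 3 each). On day 3 limma called 0 of the 16 against control, with 1 lower at an unadjusted p under 0.05 and 0 called by limma-voom. The cell source of the Igf1 difference was not tested. The ratio of Igf2 to Igf1 FPKM was 20.7 ± 1.56 on day 3, 6.46 ± 0.542 on day 1 and 23.4 ± 1.76 in control (SD, n = 3 each).

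**Figure D2:**
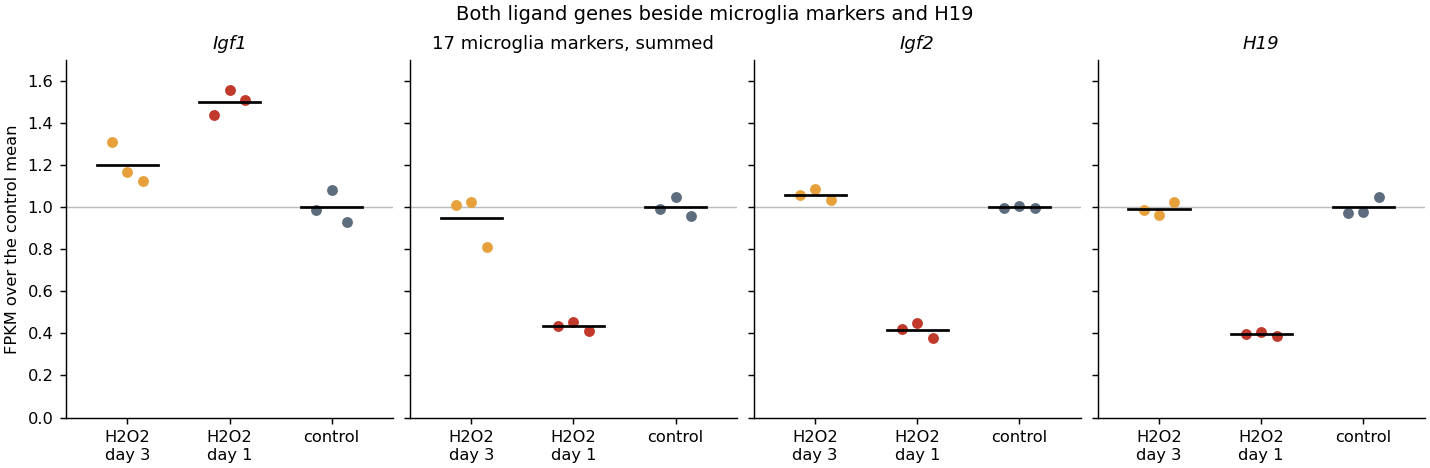
Igf1, the sum of 17 microglia markers, Igf2 and H19 in each library, as FPKM divided by the control mean (vertical axis from 0), in the day 3, day 1 and control groups, with bars at group means. Day 1 libraries are the highest for Igf1 and the lowest for the other 3 quantities.

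Both receptor genes changed on day 1, in opposite directions. Igf1r, which encodes the signalling receptor, had 15.2, 15.1 and 15.3 FPKM on day 3, 12.1, 12.1 and 11.6 FPKM on day 1, and 14.6, 14.7 and 14.5 FPKM in control. All day 1 libraries lay below all others, and replicates within a group were close together. Igf1r was 1.20-fold lower on day 1 than in control (1.14 to 1.25, limma adjusted p = 2.13e-05) and 1.26-fold higher on day 3 than on day 1 (1.20 to 1.32, limma adjusted p = 5.14e-06). The 1.05-fold difference between day 3 and control did not pass (1.01 to 1.10, limma adjusted p = 0.13), although their libraries did not overlap.

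Igf2r, whose product carries IGF2 to lysosomes along with newly made lysosomal enzymes, had 22.7, 22.3 and 24.5 FPKM on day 3, 29.7, 30.2 and 30.7 FPKM on day 1, and 18.2, 18.9 and 17.8 FPKM in control. The groups were fully separate, with day 3 between day 1 and control. Relative to control, Igf2r was 1.68-fold higher on day 1 (1.59 to 1.79, limma adjusted p = 8.34e-08) and 1.28-fold higher on day 3 (1.20 to 1.36, limma adjusted p = 0.000296). It was 1.32-fold lower on day 3 than on day 1 (1.24 to 1.40, limma adjusted p = 9.91e-06). The ratio of Igf2r to Igf1r FPKM was 1.52 ± 0.0668 on day 3, 2.54 ± 0.107 on day 1 and 1.25 ± 0.0283 in control (SD, n = 3 each).

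Igfbp2, Igfbp5, Igfbp3 and Igfbp7 were the most abundant of the 10 genes, and the binding protein genes split by direction. Igfbp2 and Igfbp5, whose products are both secreted IGF carriers, are neighbours on chromosome 1. Igfbp2 runs on the plus strand from 72824480 to 72852474 and Igfbp5 on the minus strand from 72858065 to 72874865, so that their 3′ ends face each other 5.59 kb apart (GRCm38.p6). They changed in opposite directions on day 1, while Igfbp4 and Igfbp7 on other chromosomes had the largest rises. The start regions of these 4 genes, from 250 bases before to 50 bases after the annotated start (RefSeq, GRCm38.p6), are printed 5′ to 3′ on the strand of the gene, to set beside each other the neighbours that diverged and the pair that rose most. Capitals mark each match to TATAAA, the TATA box core, or to GGGCGG, the GC box core, on either strand. The windows are chr1:72824230-72824529 for Igfbp2 (plus strand, RefSeq gives this gene a further start), chr1:72874816-72875115 for Igfbp5 (minus strand), chr11:99040994-99041293 for Igfbp4 (plus strand) and chr5:77407996-77408295 for Igfbp7 (minus strand). The RefSeq gene record of Igfbp4 begins upstream of its window, at 99040005.
Igfbp2: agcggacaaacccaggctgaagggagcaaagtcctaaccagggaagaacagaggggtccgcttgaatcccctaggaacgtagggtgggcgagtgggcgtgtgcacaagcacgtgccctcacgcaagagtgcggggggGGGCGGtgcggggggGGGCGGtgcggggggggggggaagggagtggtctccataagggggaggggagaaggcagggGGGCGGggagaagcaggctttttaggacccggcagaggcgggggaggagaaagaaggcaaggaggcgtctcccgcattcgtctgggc
Igfbp5: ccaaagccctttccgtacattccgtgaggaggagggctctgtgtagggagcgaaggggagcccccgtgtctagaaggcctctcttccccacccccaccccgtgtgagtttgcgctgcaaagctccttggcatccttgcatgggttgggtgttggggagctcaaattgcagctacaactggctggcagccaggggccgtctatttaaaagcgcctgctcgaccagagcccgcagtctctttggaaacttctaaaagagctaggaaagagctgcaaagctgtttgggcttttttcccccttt
Igfbp4: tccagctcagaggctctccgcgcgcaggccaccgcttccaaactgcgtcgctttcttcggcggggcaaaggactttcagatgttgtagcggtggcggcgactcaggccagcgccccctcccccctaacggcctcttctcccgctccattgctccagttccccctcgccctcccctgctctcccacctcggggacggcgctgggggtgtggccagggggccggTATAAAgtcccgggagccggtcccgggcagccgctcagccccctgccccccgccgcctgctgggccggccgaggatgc
Igfbp7: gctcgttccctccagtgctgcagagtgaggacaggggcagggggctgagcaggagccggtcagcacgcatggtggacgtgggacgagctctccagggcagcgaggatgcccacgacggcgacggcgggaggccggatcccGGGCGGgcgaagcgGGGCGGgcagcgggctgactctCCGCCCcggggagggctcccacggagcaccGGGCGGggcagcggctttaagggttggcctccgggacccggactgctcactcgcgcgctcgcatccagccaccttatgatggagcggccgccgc
Igfbp2 held 3 GGGCGG matches and Igfbp7 held 4, Igfbp4 held 1 TATAAA match, and Igfbp5 held no match to either. The GC content of the windows was 67% for Igfbp2, 56.3% for Igfbp5, 71.3% for Igfbp4 and 73.3% for Igfbp7. Over the 10 genes RefSeq gave 14 windows, of which 6 (42.9%) held GGGCGG and 2 (14.3%) held TATAAA. Among all 32851 windows of this length, 35.7% held GGGCGG and 13.6% held TATAAA, and the letters of the 2 motifs do not overlap in any printed window. A match describes the letters only.

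Igfbp2, with the highest level of the 10 genes in every library, ranked 26th of the 25239 genes by its control mean. It had 701, 736 and 795 FPKM on day 3, 1220, 1213 and 1276 FPKM on day 1, and 687, 710 and 776 FPKM in control. The day 1 libraries stood well above the rest, and day 3 and control overlapped. Igfbp2 was 1.75-fold higher on day 1 than in control (1.61 to 1.90, limma adjusted p = 4.56e-07) and 1.68-fold lower on day 3 than on day 1 (1.55 to 1.83, limma adjusted p = 1.24e-06). The 1.04-fold difference between day 3 and control did not pass (0.957 to 1.13, limma adjusted p = 0.569).

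Igfbp5, a binding protein that also attaches to extracellular matrix, had 375, 368 and 357 FPKM on day 3, 271, 275 and 267 FPKM on day 1, and 420, 457 and 424 FPKM in control. The groups did not overlap, and day 3 lay between day 1 and control. Igfbp5 was 1.56-fold lower than in control on day 1 (1.49 to 1.65, limma adjusted p = 8.6e-08) and still 1.17-fold lower on day 3 (1.11 to 1.23, limma adjusted p = 0.00156). It was 1.34-fold higher on day 3 than on day 1 (1.27 to 1.41, limma adjusted p = 2.5e-06). The ratio of Igfbp2 to Igfbp5 FPKM was 2.03 ± 0.183 on day 3, 4.56 ± 0.187 on day 1 and 1.67 ± 0.143 in control (SD, n = 3 each).

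Igfbp4, a substrate of the pappalysin proteases that is known mainly for restraining IGF action, had 32.3, 29.1 and 33.7 FPKM on day 3, 48.3, 49.3 and 56.7 FPKM on day 1, and 29.6, 27.0 and 26.5 FPKM in control. The day 1 libraries were the highest, with replicate 3 above the other 2, and a day 3 library overlapped control. It had the largest rise of the 10 genes on day 1, 1.89-fold over control (1.69 to 2.12, limma adjusted p = 1.85e-06). On day 3 it was 1.64-fold lower than on day 1 (1.46 to 1.84, limma adjusted p = 1.75e-05). The 1.15-fold difference between day 3 and control did not pass (1.03 to 1.29, limma adjusted p = 0.0939). That call changed with the method, since limma-voom on recovered reads gave an adjusted p of 0.0116 and the fit without day 1 replicate 3 gave 0.0409.

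Igfbp7, whose product binds IGF weakly and is common around blood vessels, had 161, 149 and 173 FPKM on day 3, 231, 214 and 236 FPKM on day 1, and 128, 121 and 142 FPKM in control. The 3 groups did not overlap. Igfbp7 was 1.78-fold higher than in control on day 1 (1.61 to 1.97, limma adjusted p = 1.5e-06) and 1.25-fold higher on day 3 (1.13 to 1.38, limma adjusted p = 0.00955), with day 3 1.43-fold below day 1 (1.29 to 1.58, limma adjusted p = 7.27e-05). Of 6 tested among 9 mural cell markers, 5 were higher than in control on day 1, beside 31.1% of all genes tested. Rgs5 was not called, with 1.43 FPKM on day 1 and 1.37 FPKM in control (limma adjusted p = 0.484). The 3 untested markers, Kcnj8, Abcc9 and Des, averaged under 1 FPKM. On day 3, when Igfbp7 was still higher, 2 of the 6 were higher and 1 lower, beside 7.37% and 6.45% of all genes. Acta2 averaged 405 FPKM on day 3, 996 FPKM on day 1 and 479 FPKM in control, which on day 3 was 1.17-fold lower than in control (limma adjusted p = 0.00942), and Pdgfrb averaged 21.2, 31.5 and 19.3 FPKM in the same order of groups. Their part in the Igfbp7 difference was not tested. Igfbp7 shares 85 exon bases with Polr2b on the opposite strand.

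Igfbp3, the main IGF carrier of the blood, had 357, 346 and 361 FPKM on day 3, 396, 391 and 416 FPKM on day 1, and 285, 283 and 305 FPKM in control. The groups were separate, with day 3 nearer to day 1 than to control. Igfbp3 was 1.41-fold higher than in control on day 1 (1.33 to 1.49, limma adjusted p = 1.04e-06) and 1.23-fold higher on day 3 (1.17 to 1.31, limma adjusted p = 0.000598). The 1.14-fold lower level on day 3 than on day 1 passed (1.08 to 1.21, limma adjusted p = 0.00116) but was lost under quantile normalization (log2 difference -0.07, adjusted p = 0.0954).

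Igfbp6, which prefers IGF2 over IGF1, was the least abundant binding protein gene and passed the test in none of the 3 comparisons. It had 15.2, 15.4 and 16.3 FPKM on day 3, 14.1, 12.8 and 14.6 FPKM on day 1, and 15.4, 13.7 and 15.8 FPKM in control. Control overlapped both other groups, while day 3 lay just above day 1 without overlap. Its log2 difference from control was -0.08 on day 1 (limma adjusted p = 0.295) and 0.08 on day 3 (limma adjusted p = 0.506). Between day 3 and day 1 it was 0.16 (limma adjusted p = 0.0608), and that difference passed in 6 of the alternatives tried, with adjusted p of 0.02 to 0.0422.

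**Figure D3:**
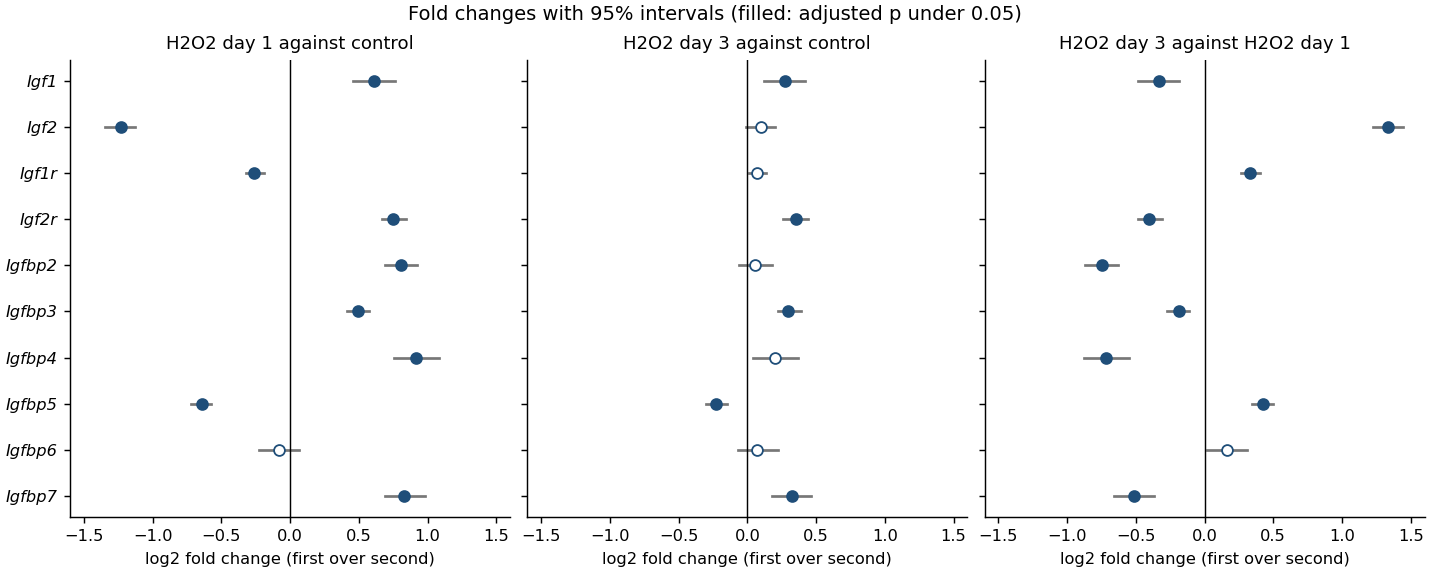
Log2 fold change (horizontal axis) of each IGF gene for day 1 against control, day 3 against control and day 3 against day 1, with 95% intervals as bars and filled points for a limma adjusted p under 0.05. Day 1 values spread from -1.24 for Igf2 to 0.92 for Igfbp4, whereas day 3 values against control lie between -0.23 and 0.35.

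Summed over the 6 binding protein genes, the level was 1673 ± 54.5 FPKM on day 3, 2201 ± 58.5 FPKM on day 1 and 1622 ± 61.9 FPKM in control (SD, n = 3 each). The day 1 sum was 1.36 times that of control, and the day 3 sum was 1.03 times that of control and 0.76 times that of day 1. The sum weighs transcripts per length. Counted as recovered reads relative to library size without length, the same ratios were 1.05, 0.964 and 0.921. In that count long genes weigh more, and the gene length recovered from the FPKM was 5854 bases for Igfbp5 and 1415 bases for Igfbp2. Binding protein FPKM exceeded summed ligand FPKM by a factor of 13.4 ± 0.812 on day 3, 41.1 ± 4.29 on day 1 and 13.9 ± 0.545 in control (SD, n = 3 each).

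The make-up of that sum shifted from Igfbp5 towards Igfbp2 on day 1. Igfbp2 made up 44.4% ± 1.57 of it on day 3, 56.2% ± 0.215 on day 1 and 44.6% ± 1.15 in control (SD, n = 3 each). Igfbp5 made up 21.9% ± 1.22 on day 3, 12.3% ± 0.484 on day 1 and 26.8% ± 1.64 in control (SD, n = 3 each). Igfbp3 held 21.2% ± 0.485 on day 3, the highest of the 3 groups, against 18.2% ± 0.101 on day 1 and 17.9% ± 0.343 in control (SD, n = 3 each). Igfbp7 held 9.61% on day 3, 10.3% on day 1 and 8.03% in control. Igfbp4 held 1.89% on day 3, 2.33% on day 1 and 1.71% in control, and Igfbp6 held 0.934%, 0.628% and 0.925% in the same order of groups.

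**Figure D4:**
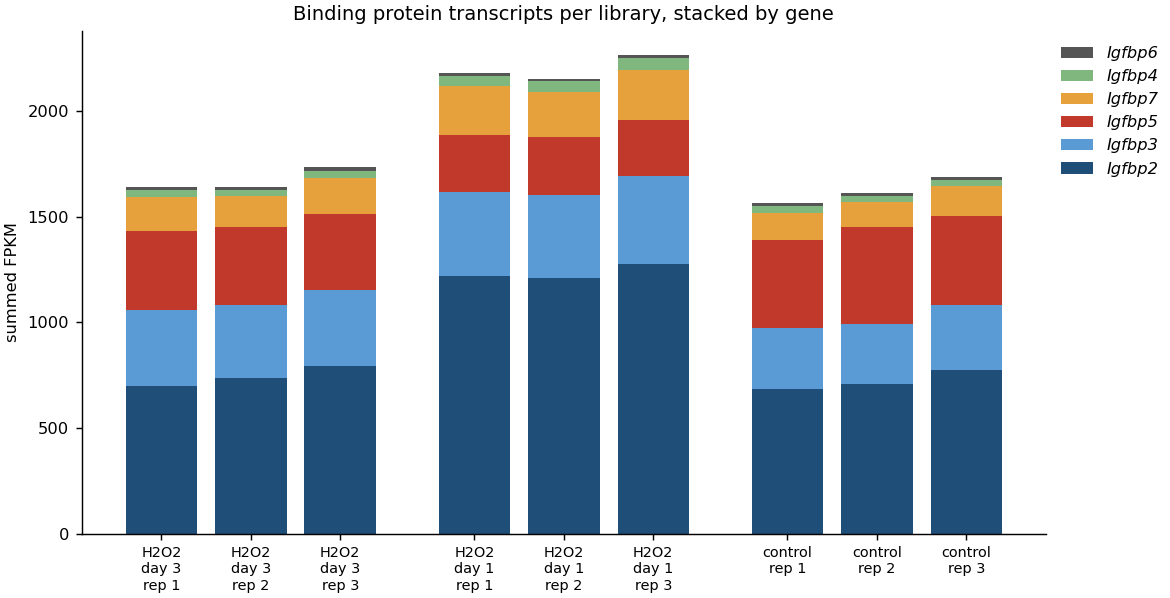
Summed FPKM of the 6 binding protein genes in each library (bar height, from 0), stacked by gene, for day 3, day 1 and control. The day 1 bars reach 2155 to 2267 FPKM, above the day 3 bars (1640 to 1736) and the control bars (1566 to 1689), and within them the Igfbp5 block is the thinnest of the 3 groups and the Igfbp2 block the tallest.

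The order of levels changed with these shifts. On day 3, Igfbp2 led with 744 FPKM on average, followed by Igfbp5 (366) and Igfbp3 (355), whose libraries overlapped, then Igfbp7 (161), Igf2 (119), Igfbp4 (31.7), Igf2r (23.2), and Igfbp6 (15.6) and Igf1r (15.2), which overlapped, with Igf1 last (5.78). On day 1 Igfbp3 (401) stood above Igfbp5 (271), and Igf2 (46.7) was no longer set apart from Igfbp4 (51.4). In control, Igfbp5 (434) stood above Igfbp3 (291), Igf2 (112) above Igfbp4 (27.7), and Igfbp6 and Igf1r were the only neighbours whose libraries overlapped.

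Among the wider IGF and insulin family, 8 further genes were listed and 3 were tested. Insr, Igflr1 and Igfbpl1 were all lower on day 1 than in control, beside 31.1% of all genes tested. Igfbpl1, which encodes a binding protein-like secreted factor, had 6.75, 6.91 and 6.70 FPKM on day 3, 7.22, 7.22 and 6.59 FPKM on day 1, and 11.9, 12.5 and 11.8 FPKM in control. Its libraries of both days overlapped each other and lay below all control libraries. It was 1.75-fold below control on day 3 (1.64 to 1.87, limma adjusted p = 3.87e-06) and 1.68-fold below on day 1 (1.57 to 1.79, limma adjusted p = 1.74e-07), and its log2 difference between day 3 and day 1 was -0.06 (limma adjusted p = 0.258). The insulin receptor gene Insr averaged 8.44 FPKM on day 3, 7.22 FPKM on day 1 and 8 FPKM in control, a day 1 difference of 1.08-fold (limma adjusted p = 0.0349). Igflr1, which encodes a receptor-like membrane protein, averaged 4.95 FPKM on day 3, 3.56 FPKM on day 1 and 4.57 FPKM in control, a day 1 difference of 1.26-fold (limma adjusted p = 0.0217). Ins1 was at 0 in all 9 libraries, Ins2, Igfals and Insrr reached at most 0.134 FPKM in any of them, and Igfbp1, the neighbour of Igfbp3, had 1 read in 1 library.

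Genes of proteases that cut the binding proteins, and of their inhibitors, mostly rose on day 1. Of 6 tested among 8, 5 were higher and 1 lower than in control on day 1, beside 31.1% of all genes tested in each direction. Against control, 3 were higher on day 3, beside 7.37%. Between the days, 5 were lower and 1 higher on day 3 than on day 1, beside 28.4% and 27.9%. Pappa, which encodes the pappalysin that cuts IGFBP4, had 2.41, 2.11 and 2.80 FPKM on day 3, 3.05, 3.26 and 4.08 FPKM on day 1, and 1.49, 1.6 and 1.72 FPKM in control. Its groups did not overlap, and it was 2.13-fold above control on day 1 (1.76 to 2.57, limma adjusted p = 2.39e-05) and 1.5-fold above it on day 3 (1.24 to 1.82, limma adjusted p = 0.0114). Htra1, a secreted serine protease gene, averaged 88.2 FPKM on day 3, 174 FPKM on day 1 and 77.6 FPKM in control, which on day 1 was 2.30-fold above control (2.17 to 2.44, limma adjusted p = 5.39e-09). Adam12, a metalloprotease gene, averaged 13.3 FPKM on day 3, 21.4 FPKM on day 1 and 11.5 FPKM in control, 1.89-fold above control on day 1 (limma adjusted p = 6.19e-07). Adam9, of the same family, averaged 54.1 FPKM on day 3, 70.4 FPKM on day 1 and 52.4 FPKM in control (1.37-fold on day 1, limma adjusted p = 2.32e-07). Stc2, whose product stanniocalcin-2 inhibits pappalysin, averaged 1.05 FPKM on day 3, 1.90 FPKM on day 1 and 1.04 FPKM in control (1.78-fold on day 1, limma adjusted p = 0.000147).

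The exceptions were Adamts1, another metalloprotease gene, and Pappa2. Adamts1 averaged 24.3 FPKM on day 3, 20.4 FPKM on day 1 and 23.6 FPKM in control, 1.13-fold lower on day 1 (limma adjusted p = 0.000611). Pappa2, the paralogue of Pappa, was under the filter and not tested, with 1.04, 1.01 and 1.28 FPKM on day 3, 0.259, 0.304 and 0.266 FPKM on day 1, and 0.968, 0.998 and 0.938 FPKM in control. Its day 1 libraries were the lowest, while those of Pappa were the highest. Stc1, also untested, had at most 0.327 FPKM in any library.

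Of 10 receptor adaptor genes, which act downstream of the receptors, 4 were higher and 5 lower than in control on day 1, and 1 was higher and 1 lower on day 3, beside 31.1% of all genes tested in each direction on day 1 and 7.37% and 6.45% on day 3. Grb14 and Grb10, which encode adaptors that damp insulin and IGF receptor signalling, rose on day 1, to 7.02 FPKM for Grb14 against 4.49 FPKM in control (1.59-fold, limma adjusted p = 3.39e-05) and to 46.8 FPKM for Grb10 against 31.8 FPKM in control (1.5-fold, limma adjusted p = 5.07e-05). Gab1, a docking protein gene, averaged 30.5 FPKM on day 3, 23.0 FPKM on day 1 and 33.9 FPKM in control, 1.44-fold below control on day 1 (limma adjusted p = 4.13e-07). Sh2b2, an adaptor gene at a low level, averaged 1.01 FPKM on day 1 and 1.57 FPKM in control (1.51-fold lower, limma adjusted p = 0.0118). Irs2, an insulin receptor substrate gene, averaged 39.0 FPKM on day 3, 30.4 FPKM on day 1 and 39.8 FPKM in control, 1.28-fold below control on day 1 (limma adjusted p = 1.04e-06). Shc1 was the adaptor gene that was higher on day 3, with 29.1 FPKM on day 3 and 26.8 FPKM in control (1.10-fold, limma adjusted p = 0.0157).

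The PI3K, AKT and FOXO branch relays the receptor signal to growth and metabolism. Of 24 of its genes, 8 were higher and 8 lower than in control on day 1, again near the 31.1% of all genes. On day 3, 4 were higher and 0 lower by limma, beside 7.37% and 6.45% of all genes tested. On that day 1 was lower at an unadjusted p under 0.05 and 0 by limma-voom. Pik3r3, a regulatory subunit gene of PI3K, averaged 7.16 FPKM on day 3, 10.1 FPKM on day 1 and 6.29 FPKM in control, 1.63-fold above control on day 1 (limma adjusted p = 3.33e-07). Rictor, a subunit gene of the kinase complex mTORC2, averaged 14.2 FPKM on day 3, 14.9 FPKM on day 1 and 10.9 FPKM in control, and it stayed 1.32-fold above control on day 3 (limma adjusted p = 0.00147). Pik3cd, a catalytic subunit gene, averaged 1.88 FPKM on day 3, 1.21 FPKM on day 1 and 2.05 FPKM in control, 1.61-fold below control on day 1 (limma adjusted p = 0.00034). Foxo4, a transcription factor gene, averaged 16.9 FPKM on day 3, 14.3 FPKM on day 1 and 17.9 FPKM in control (1.22-fold lower on day 1, limma adjusted p = 5.38e-05).

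In the list of IGF2 mRNA-binding proteins and the H19 locus, 4 of 6 were tested. Igf2bp2 and Igf2bp3, whose products bind the Igf2 mRNA, and Plagl1, an imprinted transcription factor gene, were higher on day 1, opposite to Igf2 and H19. Among all genes tested, 31.1% were called in each direction on day 1. On day 3 limma called 0 of the 4 against control, with 1 higher at an unadjusted p under 0.05 and 1 called by limma-voom. Igf2bp3 averaged 3.35 FPKM on day 3, 4.14 FPKM on day 1 and 3.24 FPKM in control, 1.29-fold above control on day 1 (limma adjusted p = 0.0054). Igf2bp2 averaged 8.39 FPKM on day 3, 9.38 FPKM on day 1 and 7.73 FPKM in control, 1.24-fold above it on day 1 (limma adjusted p = 7.75e-05). Plagl1 averaged 19.8 FPKM on day 3, 22.3 FPKM on day 1 and 20.6 FPKM in control (1.11-fold on day 1, limma adjusted p = 0.00202). Of 5 growth hormone axis genes, which in liver drive Igf1, Stat5b and Jak2 were lower on day 1, beside 31.1% of all genes tested. On that day 0 were higher by limma, at an unadjusted p under 0.05 or by limma-voom. Against control on day 3, limma called 0 of the 5, with 2 higher and 1 lower at an unadjusted p under 0.05. Stat5b, a signal transducer gene, averaged 4.96 FPKM on day 3, 3.81 FPKM on day 1 and 5.24 FPKM in control, 1.34-fold below control on day 1 (limma adjusted p = 2.07e-05). Jak2, the kinase gene that acts before it, averaged 15.2 FPKM on day 3, 15 FPKM on day 1 and 16.2 FPKM in control, 1.06-fold lower on day 1 (limma adjusted p = 0.037).

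**Figure D5:**
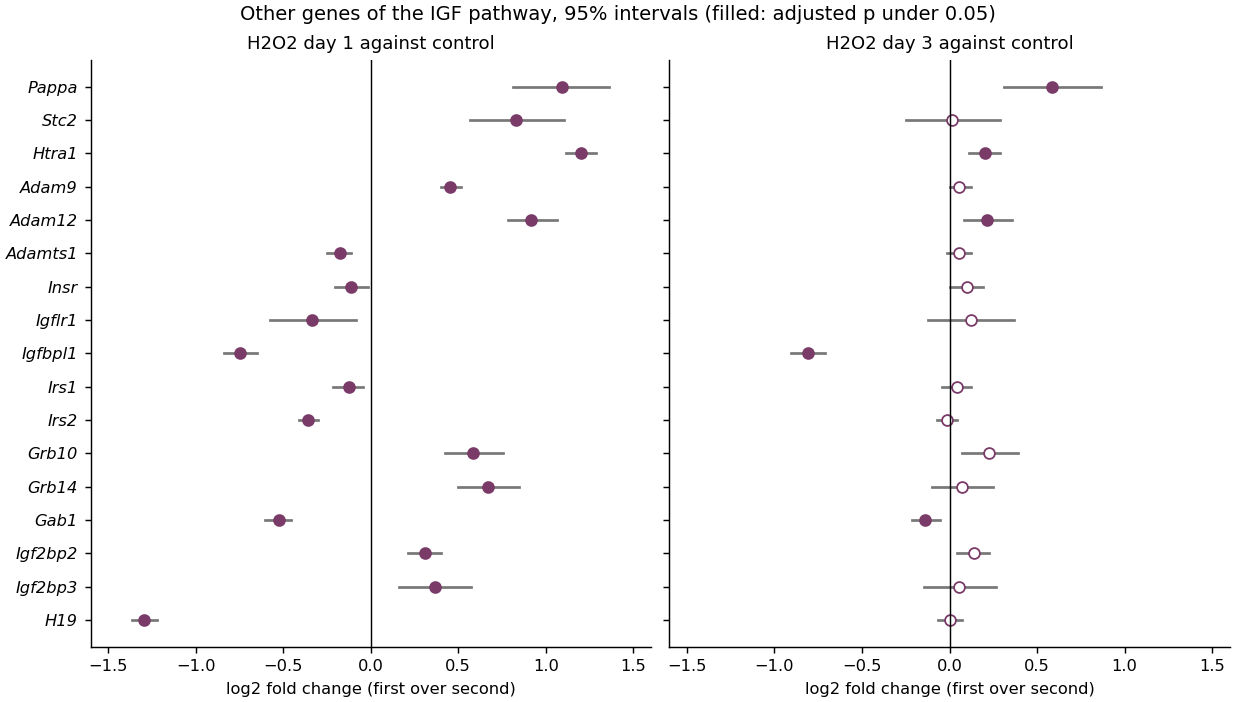
Log2 fold change (horizontal axis) of 17 further genes of the IGF pathway for day 1 against control and day 3 against control, with 95% intervals as bars and filled points for a limma adjusted p under 0.05. On day 1 Htra1 and Pappa lie farthest to the right and H19 farthest to the left, and on day 3 Pappa, Htra1, Adam12, Igfbpl1 and Gab1 are filled.

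For each IGF gene, the 3 genes whose log2 values followed it most closely over the 9 libraries were identified by Pearson correlation, as a description. The 9 points fall into 3 groups and day 1 stands apart for most genes, so high values are common. Igf2 was followed by Dcn, Chil1 and Spon1 (r = 0.998 each), and H19 stood in 41st place with 0.992. Igf1 was followed by Rbm6 with 0.985, Elf4 with 0.984 and Dctn4 with 0.980. Igfbp6 was led by Aars2 with 0.993, and the next, Cnbd2, had 0.939. Igfbp2 was followed by Mif and Rps3 (0.997 each) and Mdh2 (0.995), and its neighbour Igfbp5 by Heg1 (0.998), Klf13 and Paqr4 (0.997 each). Igf2r was followed by Ptk7 and Piezo1 (0.996 each), and Igf1r by Ildr2 and Plce1 (0.997 each). Igfbp3 was led by Epha2 with 0.997, Igfbp4 by Tuba1c with 0.995 and Igfbp7 by Mmp11 with 0.995.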

How the data were processed

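The deposited table holds FPKM for each gene in each library, a unit the authors computed from their reads. The submitters' processing notes name FastQC 0.12.1, cutadapt 2.6, STAR 2.7.3a, DESeq2 and, as genome builds, mm10 and GRCm38. The counting program, its annotation and its strand setting were not given in the sources used here. All 20350 genes above 0 gave back whole reads from their FPKM (within 0.01 read), so the depth is known, 23032594 to 38414668 reads per library.

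Here the FPKM were rescaled by median-of-ratios factors of 0.976 to 1.02, because the ribosomal precursor Rn45s took 7.67% to 11.9% of reads. The 12611 genes averaging 1 FPKM or more were fitted as log2(FPKM + 0.1), all 9 libraries together, with limma 3.58.1 (R 4.3.3, intensity trend). Tests were two-sided, with Benjamini-Hochberg adjustment over all genes tested, a threshold of 0.05 and 95% intervals. The fit was tested on simulated data. Printed levels are the deposited FPKM. Coordinates and start regions come from RefSeq (GRCm38.p6, which held 99.2% of the symbols), and overlapping exons from a GENCODE annotation of the same build.

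The genes and lists were chosen with earlier results of these data known. All 10 IGF genes are given, all further family and protease genes, of other pathway lists up to 2 called genes with the largest rise and fall per comparison, and the 3 genes most like each IGF gene. A gene that this rule names is not reported here. Single markers (Dcn, Tbx18, Aldh1a2, Ogn, Tmem119, Acta2, Tagln, Pdgfrb, Rgs5, Kcnj8, Abcc9, Des, Cldn5, Pecam1, Cdh5, Slco1c1, Cspg4) were named after their values were seen. Astrocytes express some of the marker genes too. Alternatives covered the pseudocount, filter, scaling, libraries in the fit, replicate block, limma-voom on recovered reads with trimmed-mean scaling, a minimum fold and each library left out. Figures were drawn with matplotlib 3.10.9.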

Additional observations from a re-analysis of the deposited data

Results flagged for a closer look

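For 9 of the 10 IGF genes, the difference from control was not the same on day 3 as on day 1. Since both days share the control libraries, this is the day 3 against day 1 contrast, tested by limma with an adjusted p under 0.05. In that contrast 27.9% of all genes tested were called higher on day 3 and 28.4% lower. The log2 difference from control on day 3 minus that on day 1 was 1.34 for Igf2, 0.42 for Igfbp5 and 0.33 for Igf1r, genes that had fallen on day 1. It was -0.75 for Igfbp2, -0.71 for Igfbp4, -0.51 for Igfbp7, -0.40 for Igf2r, -0.34 for Igf1 and -0.19 for Igfbp3, genes that had risen on day 1.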

How the results depend on the processing

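Over the 10 genes, 3 comparisons and all alternatives, no IGF gene reversed its direction. There were 484 cases in which the call stayed as it was, 17 in which it was lost and 9 in which it was gained. With each library left out in turn, IGF genes called numbered 9 throughout for day 1 against control, 4 to 6 for day 3 against control and 9 to 10 between the days. All genes called numbered 7251 to 7826, 1022 to 1772 and 6390 to 7040, and the lowest counts for day 3 against control came without day 3 replicate 3 (1022) or replicate 1 (1030). A minimum fold of 1.5 left 7 IGF genes on day 1, 0 on day 3 against control and 3 between the days, out of 1302, 143 and 965 genes in all. Igf1r and Igfbp3 were the genes lost on day 1. Without length scaling, the summed binding proteins were 1.05 times control on day 1, 0.964 times control on day 3 and 0.921 times day 1 on day 3. By that count Igfbp5, not Igfbp2, was the largest contributor on day 3 (49.4% and 24.2%) and in control (56.3% and 22.7%). Quantile normalization left Igfbp3 uncalled between the days. Same-numbered replicates correlated by -0.08 to 0.11 in their deviations, so the numbers were not taken to pair libraries. With a replicate block, 9, 5 and 10 IGF genes and 7894, 1807 and 7167 genes in all were called, and Igfbp6 between the days had an adjusted p of 0.02. Reads per value were fewest for Igfbp6, at 430 to 770. Such a depth and 3 libraries per group limit the precision of small differences, as for Igfbp6.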
